A study of Mus musculus with 2 samples.

Results

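RAW264.7 is an established macrophage cell line that was derived from an Abelson virus-induced tumour of a male adult BALB/c mouse. The gene microarray measured 8 genes of the Fc receptor family in 1 culture of these cells given vehicle control and 1 culture given 10 μM IR-61, a near-infrared dye that locates to mitochondria, both for 24 h. The genes were *Fcgr1*, *Fcgr2b*, *Fcgr3*, *Fcgr4*, *Fcer1g*, *Fcrl1*, *Fcrl5* and *Fcrls*, out of 20651 named genes with a value. They were chosen by family membership while the differences between these same 2 arrays were already known. *Fcrl1* was the largest rise among the genes well above background on both arrays. The values of the 8 genes are therefore a description, and no test is attached to them. With 1 array per condition no p-value is given, and an effect of IR-61 and a difference between 2 cultures cannot be told apart.

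Fc receptors are surface proteins by which immune cells bind the constant part of antibodies. In macrophages the activating receptors for IgG signal through *Fcer1g*, the common gamma chain, whose tyrosines are phosphorylated by Src family kinases and then bind the kinase Syk. The inhibitory receptor *Fcgr2b* instead recruits the lipid phosphatase encoded by *Inpp5d*, and the balance between both kinds sets how strongly a macrophage takes up antibody-coated particles and secretes cytokines. The Fc receptor-like genes are relatives in sequence, best known from B cells for *Fcrl1* and *Fcrl5* and from microglia for *Fcrls*.

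On each array the intensity of a probe was read on the log2 scale and reduced by the array's 75th percentile (10.30 for the vehicle array, 10.79 for that of IR-61). A difference is IR-61 minus vehicle on this scale, and it is relative to an IR-61 array that was brighter as a whole by 0.49. The median difference of the 16882 genes well above background on both arrays was 0.10. The error given with a difference is an SD derived from how far repeated spots of 1 probe scattered, so it covers noise within an array only. In RNA of a whole culture, a change in the share of some cells and a change in RNA per cell cannot be told apart. Of the 9 probes of the family, 8 were well above background on both arrays, 1 for every gene, and the second probe of *Fcrl5* was above background on neither. The defining macrophage genes were bright, with an intensity of 95040 for *Csf1r*, 52490 for *Adgre1* and 20490 for *Itgam* on the vehicle array, so the defining markers of the labelled cell type were present. Levels are not ranked between genes, because probes bind with different strength.

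Of the 8 genes, 1 was higher with IR-61 by 2-fold or more and 0 were lower, against 2.0% higher and 1.39% lower among all 16882 genes. At a limit of 1.5-fold 2 were higher and 1 was lower, against 9.82% and 5.67%. *Fcrl1* and *Fcgr1* stood on the higher side, *Fcgr3* on the lower, and the other five lay closer to no change. The 5 genes with negative differences were *Fcgr2b*, *Fcgr3*, *Fcgr4*, *Fcer1g* and *Fcrl5*, and without scaling between the arrays only *Fcgr3* of them was still negative.

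**Figure D1:**
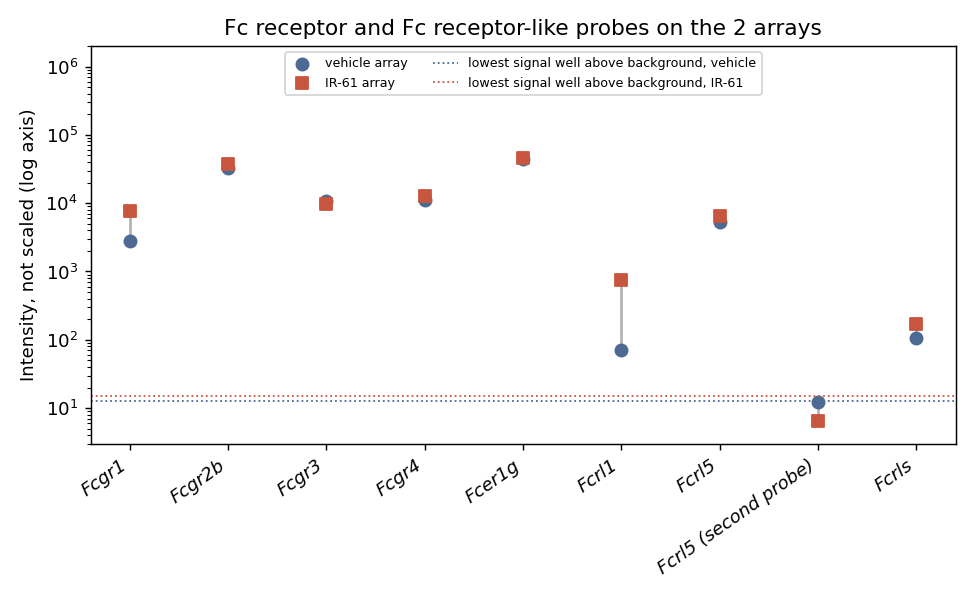
Intensity of the 9 probes of the family on the vehicle array (circles) and the IR-61 array (squares), as deposited and without scaling, on a log axis; dotted lines mark the lowest signal well above background, 12.8 (vehicle array) and 15.0 (IR-61 array). *Fcrl1* and *Fcgr1* show the widest gaps among the probes above background, and the second *Fcrl5* probe lies below both lines.

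The stretches before the gene starts are shown for the genes that moved most, *Fcgr1* and *Fcrl1* upward and *Fcgr3* downward, since the promoter of *FCGR1A*, the human counterpart of *Fcgr1*, is known for an interferon gamma-activated site next to a site for the myeloid factor PU.1. Each window runs from 250 bases before to 50 bases after the start, 5′ to 3′ on the gene's own strand, from RefSeq on build GRCm38.p6. They are chr3:96293920-96294219 (minus strand) for *Fcgr1*, chr3:87376137-87376436 (plus strand) for *Fcrl1* and chr1:171059354-171059653 (minus strand) for *Fcgr3*. Capitals mark each match, on either strand, to TTCNNNGAA, the form of an interferon gamma-activated site, and to GAGGAA, a core that PU.1 can bind.
Fcgr1: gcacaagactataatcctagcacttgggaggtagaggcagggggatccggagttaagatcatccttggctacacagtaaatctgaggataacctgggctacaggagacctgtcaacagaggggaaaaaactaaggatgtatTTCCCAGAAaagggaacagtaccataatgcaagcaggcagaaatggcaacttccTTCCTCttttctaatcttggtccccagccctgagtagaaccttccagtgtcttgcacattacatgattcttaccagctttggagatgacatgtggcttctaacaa
Fcrl1: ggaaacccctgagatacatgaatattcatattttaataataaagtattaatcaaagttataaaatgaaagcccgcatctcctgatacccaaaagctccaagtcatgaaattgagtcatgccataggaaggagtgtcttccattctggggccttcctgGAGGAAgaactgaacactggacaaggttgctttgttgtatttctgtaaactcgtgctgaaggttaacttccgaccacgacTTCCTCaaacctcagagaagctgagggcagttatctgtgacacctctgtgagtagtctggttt
Fcgr3: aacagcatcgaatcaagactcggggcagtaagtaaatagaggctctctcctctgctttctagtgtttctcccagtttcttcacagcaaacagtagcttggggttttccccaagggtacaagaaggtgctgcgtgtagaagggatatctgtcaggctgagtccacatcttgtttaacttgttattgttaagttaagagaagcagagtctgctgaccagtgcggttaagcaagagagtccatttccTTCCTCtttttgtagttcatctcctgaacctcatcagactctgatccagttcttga

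The *Fcgr1* window held 1 match to TTCNNNGAA, starting at −109 from the gene start, and 1 to GAGGAA on the opposite strand, starting at −55. *Fcrl1* held 2 matches to GAGGAA, at −93 and at −13. *Fcgr3* held 1, at −6 in the window shown and at −15 in the window of its other start. The 8 genes thus had 9 windows. *Fcgr1* was the only one of the 8 genes with TTCNNNGAA in its window, a pattern found in 8.30% of all 32851 windows of this length. GAGGAA was in the windows of 5 of the 8 genes, *Fcgr1*, *Fcgr3*, *Fcgr4*, *Fcrl1* and *Fcrls*, against 28.3% of all windows, and these 5 differ in the sign of their difference. The 2 motifs share no bases in these windows, and a match is only a run of letters.

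The high-affinity receptor for IgG, *Fcgr1* (CD64), is an activating receptor that holds monomeric antibody and is known as a gene that responds to interferon gamma. Its probe, for NM_010186, gave an intensity of 2795 with vehicle and 7803 with IR-61. The scaled log2 signals were 1.15 and 2.14, a difference of 0.99 with an SD from spots of 0.09, equal to 1.99-fold. The gene thus stood just short of the 2-fold limit, higher with IR-61 by far more than the spread between spots. Of all genes measured on both arrays, 98.0% had a smaller difference. Under the other scalings and the deposited log2 values the difference was between 0.91 and 0.96, with normexp background correction it was 1.03, and without scaling it was 1.48.

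The activating receptors *Fcgr3* (CD16) and *Fcgr4* bind IgG in immune complexes. For *Fcgr3* the intensity was 10690 with vehicle and 9860 with IR-61, the only one of the 8 gene probes that was dimmer before scaling. Its scaled difference was −0.60 with an SD of 0.09, equal to 1.52-fold lower, and it ranged from −0.70 to −0.12 over the alternatives, the last without scaling. *Fcgr4* gave 11050 and 12650, a scaled difference of −0.29 with an SD of 0.09, but an unscaled difference of 0.195, so its sign followed the scaling. Both genes lay below the median of all genes, with 5.28% and 15.9% of the genes having a lower difference.

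The inhibitory receptor *Fcgr2b* (CD32) carries an inhibitory motif in its tail. It was the only one of the 8 genes whose probe was printed 10 times on each array. The spots lay between 31020 and 35610 with vehicle, with a median of 32740, and between 34170 and 39800 with IR-61, with a median of 36995. Before scaling the arrays overlapped, and the IR-61 spots were the brighter on average. After scaling the mean ± SD between spots was 4.70 ± 0.07 (SD, n = 10 spots) with vehicle and 4.39 ± 0.08 (SD, n = 10 spots) with IR-61, and every IR-61 spot lay below every vehicle spot, at most 4.49 against at least 4.62. The scaled difference was −0.31 and the unscaled difference 0.18, with an SD from spots of 0.03. Spots of 1 array share 1 culture and are no replicates of a condition.

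**Figure D2:**
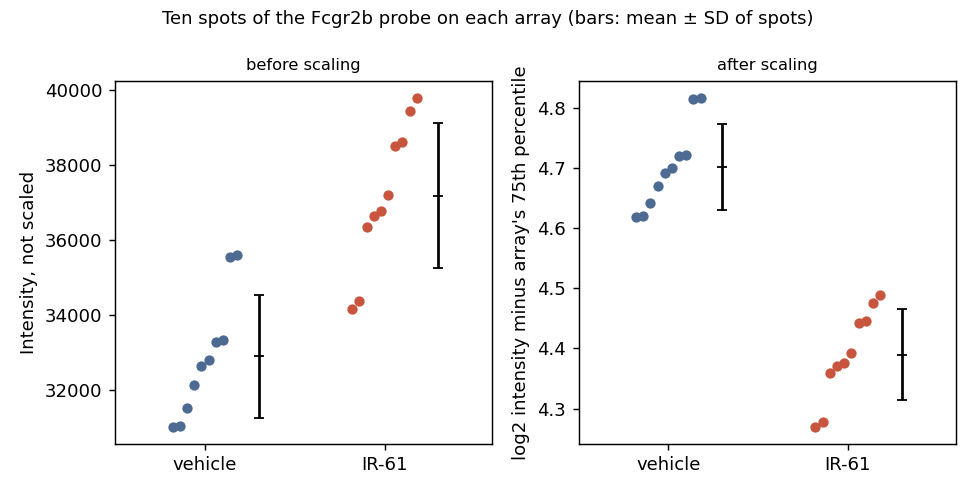
The 10 spots of the *Fcgr2b* probe on each array, as deposited intensity (left) and as log2 intensity minus the array's 75th percentile (right), with bars for the mean ± SD of the spots. The 2 arrays overlap before scaling with IR-61 the brighter, and after scaling they are apart with IR-61 the lower, at a difference of −0.31.

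The common gamma chain *Fcer1g* is needed for surface display of *Fcgr1*, *Fcgr3* and *Fcgr4*. Its probe gave 44870 with vehicle and 46110 with IR-61. The scaled difference was −0.45 with an SD of 0.09, and the unscaled difference was 0.04, within that SD of no change. Of all genes, 9.19% had a lower difference.

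Comparing genes within the arrays takes the scaling out. The ratio of *Fcgr1* to *Fcer1g* was 2.72-fold higher on the IR-61 array, with a log2 change of 1.44 and an SD from spots of 0.13. The ratio of *Fcgr1* to the inhibitory *Fcgr2b* was 2.47-fold higher, and its ratios to *Fcgr3* and *Fcgr4* were 3.03-fold and 2.44-fold higher. *Fcgr1* therefore moved apart from each of the 4 other classical Fc receptor genes under any scaling by a constant. *Fcgr4* and *Fcgr2b* moved alike within the spread between spots, with a log2 change of their ratio of 0.02 and an SD of 0.10. The ratio of *Fcgr3* to *Fcgr2b* changed by −0.29 with an SD of 0.10. *Fcgr2b*, *Fcgr3* and *Fcgr4* have similar sequences, and whether a probe of 1 also binds transcripts of the others was not tested.

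**Figure D3:**
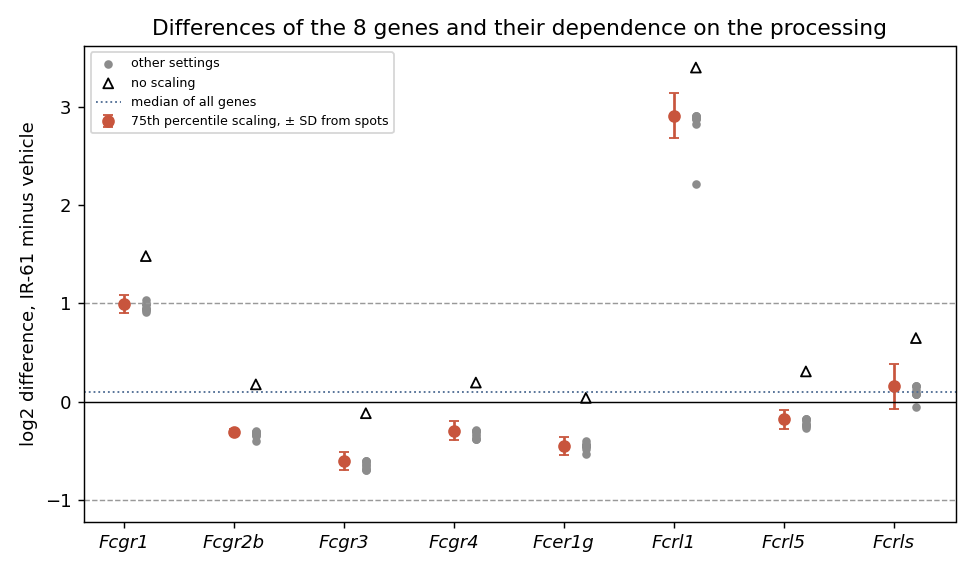
Log2 difference (IR-61 minus vehicle) of the 8 genes with scaling by the 75th percentile (red, bars for the SD from spots), under the other settings (grey) and without scaling (triangles); dashed lines mark 2-fold and the dotted line the median of all genes, 0.10. *Fcrl1* is past 2-fold under every setting and *Fcgr1* lies at the line, while *Fcgr2b*, *Fcgr4*, *Fcer1g* and *Fcrl5* are below 0 in all but the unscaled values.

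Among the Fc receptor-like genes, *Fcrl1* encodes a B cell surface protein that supports signalling of the antigen receptor. Its probe, for NM_178165, gave an intensity of 70.2 with vehicle and 740 with IR-61, and the vehicle signal was well above the lowest detected signal of 12.8. The scaled difference was 2.91 with an SD of 0.23, equal to 7.52-fold, and it took rank 1 of the 16882 genes from the largest rise. Over the alternatives it lay between 2.21 with normexp background correction and 3.40 without scaling, past 2-fold in all 10. The alternatives of a mean over probes and of no filter on dim probes could not change this value. A single probe of 1 spot reads this gene, and whether it binds another transcript was not tested.

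*Fcrl5*, a B cell surface protein with inhibitory and activating motifs, was read by a pair of probes that gave very different signals. The probe for NM_183222 gave 5224 with vehicle and 6468 with IR-61, a scaled difference of −0.18 with an SD of 0.09 and an unscaled difference of 0.31. The probe for NM_001113238 gave 12.5 and 6.48 and was not well above background on either array, so no fold is given. *Fcrls*, a relative with a scavenger receptor domain, gave 108 and 169. Its difference of 0.16 was smaller than its SD of 0.23, and with normexp background correction it was −0.05. The ratio of *Fcrl1* to *Fcrl5* was 8.52-fold higher on the IR-61 array and that of *Fcrl1* to *Fcrls* 6.74-fold higher, so the rise of *Fcrl1* had no counterpart of its size in its neighbours on the chromosome.

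**Figure D4:**
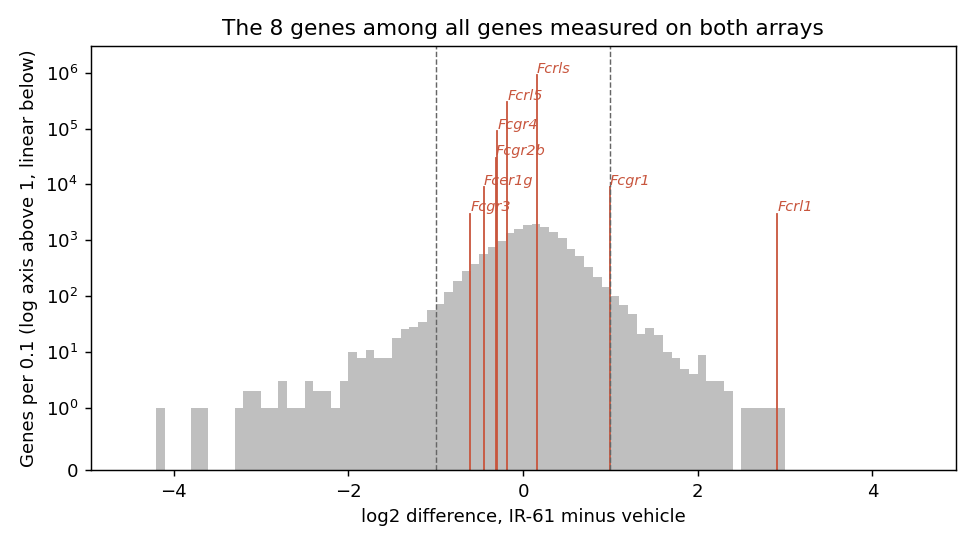
Number of genes per 0.1 of log2 difference (IR-61 minus vehicle) for the 16882 genes well above background on both arrays, on an axis that is logarithmic above 1, with the 8 genes as red lines (their heights only carry the names) and 2-fold as dashed lines. *Fcrl1* stands at the right end, *Fcgr1* at the 2-fold line and the other six within it.

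The 8 genes lie on 2 chromosomes, 4 on chromosome 1 (*Fcgr2b*, *Fcgr4*, *Fcgr3* and *Fcer1g*) and 4 on chromosome 3 (*Fcrls*, *Fcrl1*, *Fcrl5* and, farther along, *Fcgr1*). The 4 on chromosome 1 had scaled differences between −0.60 and −0.29, or −0.12 to 0.195 without scaling, and those on chromosome 3 between −0.18 and 2.91. The other genes within 2 measured places on either side of a member, 17 in all, had a median difference of 0.13 with 0 past 2-fold, and the highest was 0.78 for *Cd1d1*. Near *Fcrl1* and *Fcrl5*, the gene of a secreted macrophage protein, *Cd5l*, had a difference of 0.72 and the cell adhesion gene *Kirrel* of 0.60, whereas the repressor gene *Etv3* had −0.52.

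Of 11 other receptors that are known to pair with *Fcer1g*, 6 were well above background on both arrays, with a median difference of 0.09 beside 0.10 for all genes, or 0.13 over 7 genes with *Fcer1a* at its bound. *Clec4e* (Mincle), a receptor for mycobacterial glycolipids, was 3.66-fold lower, at 10070 with vehicle and 3853 with IR-61 and a difference of −1.87 with an SD of 0.09. Its relatives *Clec4d* and *Clec4n* gave 0.05 and 0.50, so lower signals were not shared by the 3 lectin receptors. The largest positive difference among those on both arrays was 0.91 for *Lilra5*, with an SD of 0.38. Of the rest 1 was a bound, 3 were above background on neither array and 1, *Pira6*, had no named probe. *Pira2* had a difference of 0.03 at its brighter probe and −0.98 at the other.

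*Fcer1a*, the chain of the high-affinity IgE receptor that binds the antibody, is also a partner of *Fcer1g*. Its intensity was 7.58 with vehicle, not well above background, and 144 with IR-61, which gives at least 8.02-fold higher with IR-61 (a log2 bound of 3.003). The bound was 0.88 with normexp background correction, which adds 50 to each intensity, and at least 2.83 under the other alternatives. *Ms4a2*, the beta chain of that receptor, was not well above background on either array, at 2.64 and 3.31. Of the other mast cell and basophil markers, *Kit* and *Mcpt8* were also not above background, *Cpa3* was 2.83-fold lower at 109 and 53.8 (−0.96 on the log2 scale with normexp), and the median over the 5 genes on both arrays was −0.76, or −0.38 with *Fcer1a* at its bound. So 3 of the 9 markers, among them the beta chain of the same receptor, were above background on neither array, and 5 on both. Of these 5, 2 had a positive difference, at most 0.11 for *Mcpt4*, and 3 a negative one.

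The other Fc receptors and immunoglobulin-binding proteins gave a median of 0.13 over 7 genes on both arrays of 12, with 0 higher and 1 lower by 2-fold or more, which is 14.3% of the 7 against 1.39% of all genes. With *Fcer1a* at its bound the median over 8 genes was 0.13. The lower gene was *Fcmr*, the receptor for IgM, 2.25-fold lower at 131 with vehicle and 81.7 with IR-61, with a difference of −0.68 without scaling and −0.77 with normexp, both short of 2-fold. *Fcgrt*, the neonatal Fc receptor that recycles IgG, gave 571 and 898 and a difference of 0.16, within its SD of 0.23. *Trim21*, the cytosolic antibody receptor, had the largest positive difference of those on both arrays, 0.38, and *Fcrla* and *Fcrlb*, which adjoin *Fcgr2b*, gave 0.13 and −0.66.

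Of 32 genes of activating Fc receptor signalling, all were well above background on both arrays, with a median of −0.12 beside 0.10 for all genes. Past 2-fold 0 were higher and 2 were lower, which is 6.25% of the list against 1.39% of all genes. *Lcp2*, the adaptor SLP-76, was 2.36-fold lower at 257 with vehicle and 153 with IR-61, and *Fgr*, a Src family kinase, was 2.27-fold lower at 2381 and 1474. The kinases of the first steps stayed near the middle, with differences of 0.19 for *Lyn* and −0.16 for *Syk*. The largest positive difference was that of the adaptor *Grb2*, 0.62. The nucleotide exchange factor *Vav1* had −0.11 at its brighter probe and −0.98 at the other. Without scaling the list median was 0.37, and *Lcp2* and *Fgr* were at −0.75 and −0.69.

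Of 16 genes of inhibitory signalling, all were on both arrays, with a median of 0.09. By 2-fold or more 1 was higher, or 6.25% against 2.0% of all genes, and 0 were lower, against 1.39%. *Clec12a*, an inhibitory lectin receptor, was 2.49-fold higher at 201 with vehicle and 703 with IR-61, a difference of 1.32 with an SD of 0.23. *Inpp5d*, the lipid phosphatase that *Fcgr2b* recruits, had a difference of 0.60. By the brightest probe of each gene, *Dok1*, an adaptor of the same pathway, had the lowest at −0.46, from intensities of 2920 and 2979. Dimmer probes went lower for *Lilrb4a*, at −0.93 beside −0.18 at its brightest, and for *Pilra*, at −0.54 beside 0.09. The tyrosine phosphatases *Ptpn6* and *Ptpn11* gave −0.14 and 0.02.

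**Figure D5:**
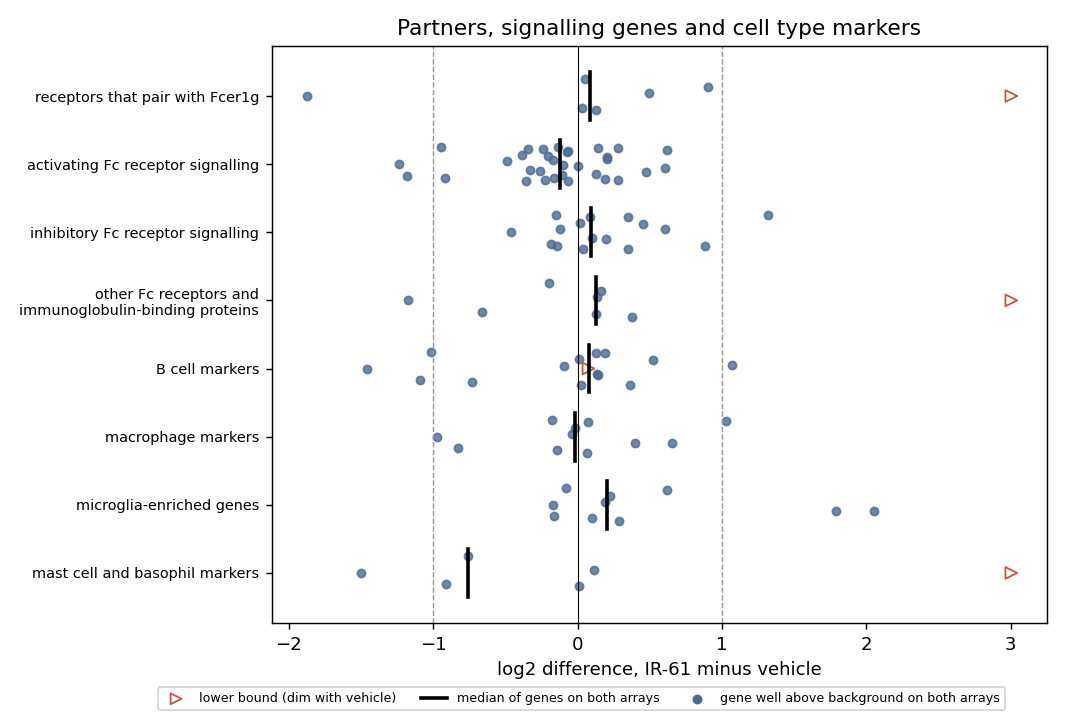
Log2 difference (IR-61 minus vehicle) of the genes well above background on both arrays (points) in each list, with the list median (bar), lower bounds for genes dim with vehicle (triangles) and 2-fold (dashed lines); vertical scatter only separates points. With this scaling the medians of all lists but that of mast cell and basophil markers lie between −0.12 and 0.21, and *Fcer1a*, in 3 of the lists, is at its bound of 3.003.

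Since *Fcrl1* and *Fcrl5* are best known from B cells, 18 B cell markers were read beside them. Of these 14 were well above background on both arrays, and their median was 0.08, or −0.13 to −0.007 with scaling by the median, quantile normalization, loess, the deposited values and normexp. *Ms4a1* (CD20) was 2.75-fold lower at 353 with vehicle and 180 with IR-61, *Cd79b* 2.13-fold lower and *Spib* 2.03-fold lower, and without scaling their differences were −0.97, −0.60 and −0.53. With normexp *Cd79b* and *Spib* were at −0.90 and −0.95. Of the 14 genes 3, or 21.4%, were lower by 2-fold or more, against 1.39% of all genes. By the same limit 1, or 7.14%, was higher, against 2.0%. *Cd72*, which macrophages also express, was 2.10-fold higher at 1106 and 3261, and its second probe gave a difference of 0.98. It fell short of 2-fold with scaling by the median (0.989) and with normexp (0.97). *Pax5* gave 37.0 and 66.8 and a difference of 0.37, within its SD of 0.38. The summed intensity of the list, without scaling, was 4694 with vehicle and 7797 with IR-61, beside an IR-61 array that was brighter as a whole. Most of this increase lay in *Cd22*, at 1675 and 2564, and *Cd72*, at 1106 and 3261. *Rag1*, *Igll1* and *Ebf1* were on neither array above background. Whether these genes have a part in the signal of *Fcrl1* was not tested.

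Of 11 microglia-enriched genes, read beside *Fcrls*, 10 were on both arrays with a median of 0.21, and 2 of them, or 20%, were higher by 2-fold or more, against 2.0% of all genes. The purine receptor *P2ry12* was 4.14-fold higher at 67.3 with vehicle and 391 with IR-61, and the lysophospholipid receptor *Gpr34* was 3.46-fold higher at 23.6 and 115. Their differences were 2.05 and 1.79, and 1.33 and 0.66 with normexp. *Tmem119* gave −0.17 and the lineage factor *Sall1* was on neither array above background, and *Fcrls* stayed within 2-fold. Of 12 macrophage markers 11 were measured, *Cd68* having no named probe, with a median of −0.02. *Adgre1*, the surface marker gene of mature macrophages, was 2.04-fold higher at 52490 and 150000, with 0.85 at its second probe, and it fell short of 2-fold with scaling by the median (0.94), by the 75th percentile over detected probes (0.990) and with the mean over probes (0.94). The lowest difference was that of *Cd14* at −0.98, and *Spi1*, which encodes PU.1, had −0.83 at 1002 and 790.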

How the data were processed

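RNA of each culture was labelled with Cy3, and 1 single-colour Agilent mouse array was hybridized per culture. Both arrays lay on 1 slide and were read in 1 scan. The authors deposited the intensity of each spot from Agilent Feature Extraction (version 11.0.1.1 per the file headers, 11.0.0.1 per the submitters' processing notes), background-subtracted and detrended within the array, and a table of log2 values per probe, whose making is not stated and whose columns share a median of 7.16.

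Control spots and outlier spots (124 with vehicle, 139 with IR-61) were left out, log2 intensities of a probe's spots were averaged and the array's 75th percentile was subtracted. No spot was saturated. Of 39429 probes 27228 were named by RefSeq accession through the GRCm38.p6 gene table, which was used for names and gene order only, since the array design is on another build. A gene took its brightest probe. A probe counted as measured where the software called it well above background, which held for 77.6% of the probes with vehicle and 81.2% with IR-61. Where a probe was dim on 1 array, that signal, or the lowest detected signal there if higher, was used and a bound is given. The SD of a difference came from those of the 399 probes printed 10 times that were well above background on an array, by signal range. The depth of an array is not defined, and the number of arrays limits the precision.

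The 8 genes, the gene lists and the rule for naming genes (all members, the genes of each list past 2-fold and otherwise its largest rise and fall) were chosen with earlier results of these data known. Other genes of the lists are named as defining markers or after their values were seen. Alternatives were other scalings, the deposited log2 values, normexp with an offset of 50 on the median signal (4 IR-61 spots whose background exceeded their signal took the median background), the mean over probes, outlier spots kept, no filter on dim probes, other fold limits and counts over probes. The steps were tested on simulated data. Normexp and loess were run in limma 3.58.1 (R 4.3.3), and all other steps in Python 3.11.15 (numpy 2.4.6, pandas 2.3.3, matplotlib 3.10.9).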

Additional observations from a re-analysis of the deposited data

How the results depend on the processing

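No paired analysis was possible because with 1 array in either condition there is only 1 pair. Leaving out a replicate was not possible either. With scaling, *Fcrl1* and *Fcgr1* were higher and *Fcgr2b*, *Fcgr3*, *Fcgr4*, *Fcer1g* and *Fcrl5* lower in all of the 9 other alternatives. Among these, the mean over probes and the removed filter could not change the values. Each of these genes has only 1 probe well above background on both arrays.

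Without scaling, which moved the median of all genes from 0.10 to 0.59, *Fcgr2b* came to 0.18, *Fcgr4* to 0.195, *Fcer1g* to 0.039 and *Fcrl5* to 0.31. The list medians then were 0.58 for receptors that pair with *Fcer1g*, 0.37 for activating and 0.58 for inhibitory signalling, 0.62 for other Fc receptors, 0.56 for B cell, 0.47 for macrophage, 0.69 for microglia-enriched and −0.27 for mast cell markers. The number of members higher by 2-fold was 2 without scaling and with normexp, in place of 1. The median of all genes was 0.59 without scaling and −0.032 with normexp. The share of all genes past 2-fold is not given for these settings, so the counts have no background to be read against. With the main scaling and a limit of 1.5-fold, 2 members were higher and 1 was lower, against 9.82% and 5.67% of all genes. With normexp *Fcrls* came to −0.051 and the mast cell median to −0.51. The B cell median was −0.0067 with scaling by the median, −0.0505 with quantile normalization, −0.0635 with loess, −0.0514 with the deposited values and −0.13 with normexp. Without the filter on dim probes the median was −0.14 for other Fc receptors and −0.16 for mast cell markers. Signals near background on the vehicle array limit the folds of *Fcer1a*, for which only a bound is given, and of *Gpr34*. The folds of *Fcrl1* and *P2ry12*, at 70.2 and 67.3 with vehicle, also depended on the background correction. With normexp their differences came to 2.21 and 1.33, in place of 2.91 and 2.05. The cause of the shift between the arrays was not tested.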
